A study of Mus musculus with 6 samples.

Results

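The nuclear genes of the mitochondrial respiratory chain were described by complex in cardiomyocyte (CM) nuclei that overexpressed (OE) YAP6SA or YAP5SA. The genes were the protein-coding rows of the count table with a symbol of the *Nduf* series (a, b, c, s or v followed by a number), *Sdha* to *Sdhd*, any *Uqcr* gene, *Cyc1*, *Cox4* to *Cox8*, or any *Atp5* gene. This gave 85 of 54532 rows, with 36 rows for complex I, 4 for complex II, 9 for complex III, 18 for complex IV and 18 for complex V. Of these, 82 passed the filter on low counts, out of 13323 genes tested. The others were *Cox7b2*, with 0 to 6 counts per library, *Cox8c*, with 0 counts in every library, and a further row of *Atp5o*, also with 0 counts.

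Mitochondria make ATP by passing electrons from NADH through complex I, or from succinate through complex II, to complex III, cytochrome c and complex IV, which reduces oxygen. Complexes I, III and IV pump protons across the inner membrane as they do so, and the ATP synthase, complex V, uses the resulting gradient. Apart from complex II, each complex mixes subunits of the mitochondrial genome with subunits of nuclear genes, and heart muscle carries some of its complex IV subunits as muscle isoforms.

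Wild-type ICR mice received 1e+11 viral genomes of AAV9 under the skin at 6 d of age, and hearts were taken at 9 d. The cTnT promoter, which is active in CMs, drove GFP, YAP6SA or YAP5SA from the virus, so the GFP hearts were infected as well. YAP5SA lacks the serines at which the kinases LATS1/2 phosphorylate YAP, and YAP6SA has a further serine changed to alanine that hinders its binding to TEAD transcription factors. Nuclei bound by an antibody to PCM-1 were pulled down, their poly-A RNA was sequenced without strand information, and each of the 3 groups had 2 hearts, 1 in each of 2 labelled batches.

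The gene counts ran from 14552847 to 19615627 per library, and the respiratory chain genes took 1.33% to 1.78% of them. All 6 CM markers were detected in every group. In YAP5SA against GFP all 6 had a negative log2 fold change, with a median of -0.79. For 5 of them both YAP5SA libraries were below both GFP libraries. The 2 with an FDR under 0.05 were *Pln* (log2 fold change -1.04, FDR 0.00784) and *Ryr2* (-0.81, FDR 0.0455). At that threshold, 9.18% of all genes tested were lower. Levels are given as CPM, counts scaled to the library size with edgeR's TMM factors. Differences are log2 fold changes of an edgeR fit of the 6 libraries together, which models batch and group, FDR is the Benjamini-Hochberg adjusted p of edgeR's quasi-likelihood test over all genes tested, and genes with an FDR under 0.05 are called. In bulk nuclei, fewer cells of a type and less RNA per cell cannot be told apart.

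Promoter sequences were available for 66 of the 84 symbols (RefSeq, GRCm38.p6), as 71 windows from 250 bases before to 50 bases after the start of transcription. They were searched on both strands for the letters that known regulators of these genes, and TEAD, bind. The NRF1 letters GCGCATGCG were in 11.3% of the members' windows and 1.75% of all windows, and the YY1 letters AAGATGGCG in 9.86% and 1.40%. The GABP letters CCGGAAG were in 22.5% and 8.86%, the ERR letters AAGGTCA in 11.3% and 4.72%, and the TEAD letters GGAATG in 11.3% and 14.7%. Among genes called in YAP5SA against GFP that had a window, the GABP letters were in 2 of 8 higher and 3 of 5 lower genes. In the lower genes *Ndufs8* and *Sdhb* they lay outside the 150 bases before the start. The window of *Uqcr11* also held the NRF1 letters. Such matches describe letters and not binding. The 150 bases before the start, 5′ to 3′ on the strand of the gene, are printed for 3 genes with the GABP letters (*Uqcr11* and *Ndufb7*, higher in YAP5SA OE CMs, and *Ndufs3*, lower) and for 2 genes with the TEAD letters (*Ndufa8* and *Ndufb11*). The capitals mark those letters, which stand in reverse in *Ndufb11*, and in *Ndufa8* also the NRF1 letters in reverse.
Uqcr11 (complex III, chr10:80406822-80406971, minus strand): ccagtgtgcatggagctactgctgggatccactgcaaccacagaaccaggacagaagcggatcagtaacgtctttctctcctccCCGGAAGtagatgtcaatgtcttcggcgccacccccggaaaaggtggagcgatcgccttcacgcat
Ndufb7 (complex I, chr8:83566608-83566757, plus strand): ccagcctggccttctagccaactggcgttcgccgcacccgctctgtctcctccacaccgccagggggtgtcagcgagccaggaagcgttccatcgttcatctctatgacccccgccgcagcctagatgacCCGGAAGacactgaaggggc
Ndufs3 (complex I, chr2:90904722-90904871, minus strand): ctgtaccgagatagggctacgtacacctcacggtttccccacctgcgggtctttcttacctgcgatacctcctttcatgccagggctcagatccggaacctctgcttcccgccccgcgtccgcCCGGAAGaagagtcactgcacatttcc
Ndufa8 (complex I, chr2:36049339-36049488, minus strand): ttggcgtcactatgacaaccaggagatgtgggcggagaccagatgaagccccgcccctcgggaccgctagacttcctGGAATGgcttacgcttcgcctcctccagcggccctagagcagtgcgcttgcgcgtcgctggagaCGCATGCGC
Ndufb11 (complex I, chrX:20617620-20617769, minus strand): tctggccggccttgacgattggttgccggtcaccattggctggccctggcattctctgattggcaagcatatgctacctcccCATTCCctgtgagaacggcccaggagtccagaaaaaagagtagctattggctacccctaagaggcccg

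In YAP6SA OE CMs, no member was called against GFP by edgeR, while the fitted values leaned upwards in every complex. Of the 82 members, 78 had a positive log2 fold change, compared with 50.3% of all genes tested, and the median was 0.31 against 0.00 over all genes. The complex medians were 0.31 for complex I, 0.23 for complex II, 0.35 for complex III, 0.31 for complex IV and 0.30 for complex V. The range over members was -0.06 to 0.71. The complexes differed in their medians by less than the members of any one of complexes I, III, IV and V differed among themselves.

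At the threshold, 0 members were higher and 0 were lower in YAP6SA OE CMs, against 0.0450% and 0 of all genes. At an unadjusted p under 0.05, 24 members were higher and 0 were lower, against 3.86% and 2.07% of all genes. DESeq2 and limma-voom also called 0 members, with 19 and 24 higher at an unadjusted p under 0.05. In CPM, both YAP6SA libraries were above both GFP libraries for 49 members, against 17.3% of all genes, and both were below for 0 members, against 17.0%.

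The fit of only the 4 YAP6SA and GFP libraries called 10 members higher and 0 lower, against 1.49% and 0.585% of all genes. They were *Ndufa1*, *Ndufa4*, *Ndufa8* and *Ndufa11* of complex I, *Uqcr11* and *Uqcrq* of complex III, *Cox6a1*, *Cox6b1* and *Cox7c* of complex IV, and *Atp5o* of complex V, the stalk subunit also known as OSCP. *Ndufa4* is placed in complex I by its symbol, although its product is now known as a subunit of complex IV. In the 6-library fit, these 10 genes had values from 0.47 (*Cox6a1*) to 0.71 (*Ndufa1*). Leaving out the YAP5SA library of batch 1 or that of batch 2 gave 7 calls each, against 1.13% and 1.17% of all genes. Leaving out the YAP6SA library of batch 1 lowered the median of the members to 0.18, with 0 called by edgeR and 0 at an unadjusted p under 0.05, and leaving out that of batch 2 gave 0.39, with 0 called and 28 at an unadjusted p under 0.05.

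*Ndufa1* (chromosome X of GRCm38, 37187588 to 37191163, minus strand), a small accessory subunit of the complex I membrane arm, had 34.4 and 42.4 CPM in the GFP libraries of batches 1 and 2. It had 63.3 and 61.2 CPM in YAP6SA and 57.0 and 85.5 CPM in YAP5SA. All 4 libraries of the variants were above both GFP libraries. Against GFP, the fitted difference was 0.71 for YAP6SA (standard error 0.18, FDR 0.437) and 0.88 for YAP5SA (standard error 0.18, FDR 0.00869). *Ndufa8*, an accessory subunit of the intermembrane space side, had 64.5 and 64.0 CPM in GFP, 106 and 80.2 in YAP6SA, and 69.8 and 79.1 in YAP5SA. Its fitted values were 0.53 in YAP6SA (FDR 0.653) and 0.22 in YAP5SA (FDR 0.394), with no overlap between either variant and GFP.

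The batches differed in size for YAP6SA. The median difference of log2 CPM over the members was 0.43 in batch 1 and 0.17 in batch 2, and 66 of the 82 members had the larger difference in batch 1. In both batches 67 members were positive, against 29.4% of all genes, and 1 was negative, against 29.1%. By complex, the medians in batches 1 and 2 were 0.43 and 0.16 for complex I, 0.27 and 0.15 for complex II, 0.46 and 0.19 for complex III, 0.49 and 0.23 for complex IV, and 0.31 and 0.21 for complex V. Summed over members, the GFP libraries had 14164 and 14456 CPM, and the YAP6SA libraries 17696 and 15449 CPM. Fibroblast markers moved with this difference, at 1026 and 696 summed CPM in GFP and 1362 and 756 in YAP6SA, with 0 of 6 called. Their part in the result was not tested.

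**Figure D1:**
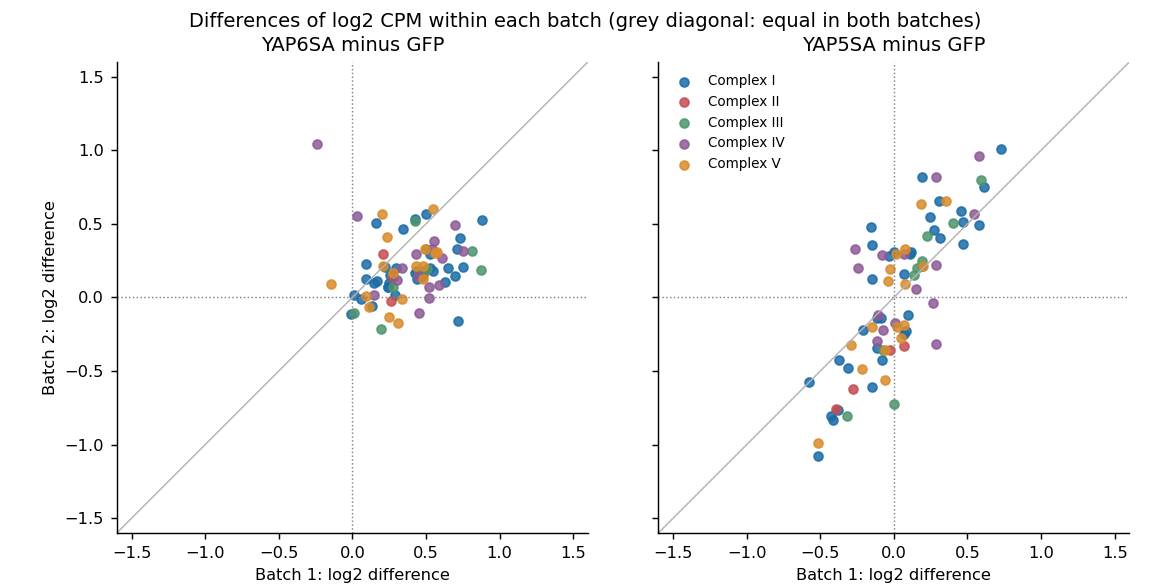
Difference of log2 CPM between each variant and GFP in batch 1 (x axis) and batch 2 (y axis) for the 82 members tested, 1 point per gene, coloured by complex. For YAP6SA most points lie right of 0 and below the diagonal, with 66 members larger in batch 1. For YAP5SA the points spread along the diagonal on both sides of 0.

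In YAP5SA OE CMs, 9 of the 82 members were called higher and 7 lower than in GFP, shares near those of all genes, 12.8% and 9.18%. Calls in both directions were found in complexes I and V. Complex I had 5 genes higher and 5 lower, complex II 1 lower, complex III 1 higher, complex IV 2 higher, and complex V 1 higher and 1 lower. The 9 members called higher were *Ndufa1*, *Ndufa2*, *Ndufa4*, *Ndufb7*, *Ndufb11*, *Uqcr11*, *Cox7a2*, *Cox7c* and *Atp5o*. The 7 called lower were *Ndufb10*, *Ndufs1*, *Ndufs3*, *Ndufs8*, *Ndufv1*, *Sdhb* and *Atp5s*. Of the 82 members, 44 had a positive value, compared with 49.7% of all genes. In CPM, both YAP5SA libraries were above both GFP libraries for 31 members, against 31.2% of all genes, and below for 18, against 29.7%. Within both batches 34 members were positive, against 37.6% of all genes, and 27 were negative, against 37.0%, so these shares lay near the background. The median over members was 0.06, with complex medians of 0.11 (I), -0.32 (II), 0.18 (III), 0.11 (IV) and -0.06 (V). In batches 1 and 2 the medians were 0.03 and 0.19 for complex I and -0.15 and -0.49 for complex II. They were 0.15 and 0.20 for complex III, 0.06 and 0.21 for complex IV, and 0.01 and -0.19 for complex V. Summed over members, the YAP5SA libraries had 13911.8 and 12735.5 CPM, against 14164 and 14456 in GFP.

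**Figure D2:**
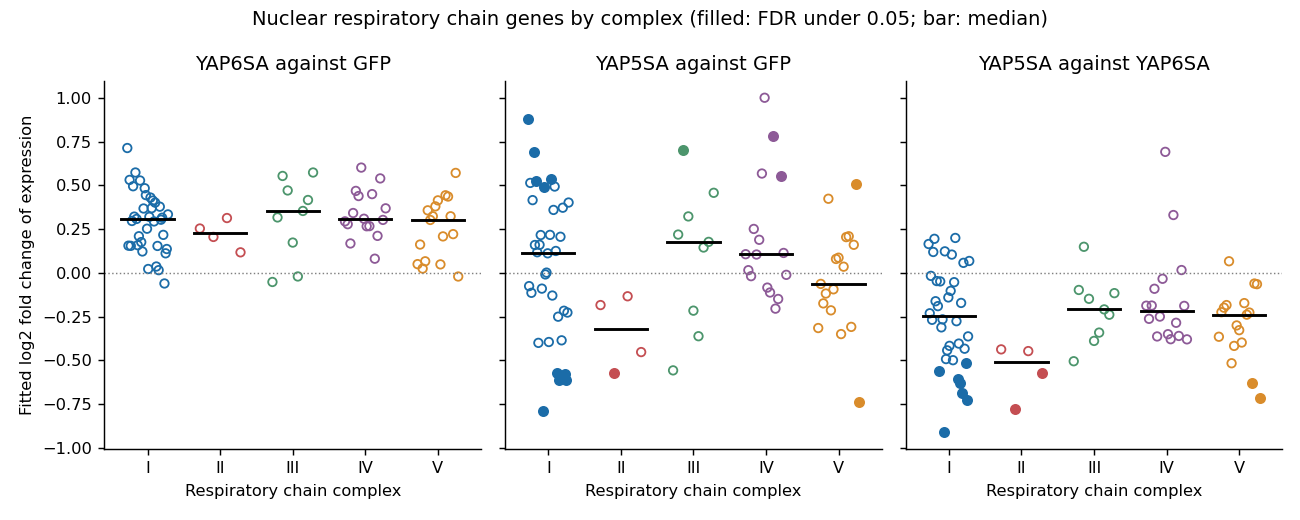
Fitted log2 fold change (y axis) of each member tested, by complex (x axis), in the 3 comparisons. Filled points have an FDR under 0.05, and the bars are the medians. YAP6SA against GFP has no filled point and medians of 0.23 to 0.35, YAP5SA against GFP has filled points on both sides of 0, and YAP5SA against YAP6SA has filled points below 0 alone.

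The subunits of complex I were also read by role. The 7 nuclear core subunits, which form the arm that holds the flavin, the iron-sulfur clusters and the quinone site, all had negative values in YAP5SA OE CMs, from -0.62 to -0.22 with a median of -0.57, and 4 of them were called lower, where 9.18% of all genes were. The 29 other subunits of complex I had a median of 0.16, with 5 called higher (12.8% of all genes) and 1 lower. Their values ran from -0.79 to 0.88, with 9 negative, and so spanned those of the core subunits. The 7 core values stayed negative in the other 9 fits of the data and in all 6 fits that left out a library. The number called lower was 0 without the batch term, against 5.70% of all genes, and 2 in the 4-library fit, against 7.25%. With a library left out, the core median ran from -0.59 to -0.39, with fewer core subunits called in most of these fits. The difference between core and other subunits was not tested as such. In YAP6SA OE CMs the core subunits had a median of 0.11 and the others 0.32.

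*Ndufv1*, which binds the flavin that accepts electrons from NADH, had 541 and 552 CPM in the GFP libraries, 578 and 603 in YAP6SA and 406 and 311 in YAP5SA. Both YAP5SA libraries were below the other 4. It fell by 0.62 in YAP5SA on the log2 scale (standard error 0.18, FDR 0.035). The core subunits *Ndufs1* (-0.57, FDR 0.0317), *Ndufs3* (-0.61, FDR 0.0241) and *Ndufs8* (-0.58, FDR 0.018) were called as well. *Ndufs3* had 246 and 232 CPM in GFP, 248 and 234 in YAP6SA, and 183 and 133 in YAP5SA, again with YAP5SA apart from the rest. *Ndufs7* (-0.22) and *Ndufv2* (-0.23) did not pass the test.

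*Ndufb10*, an accessory subunit of the membrane arm, was the complex I gene with the lowest value, at -0.79 (standard error 0.18, FDR 0.0132). It had 289 and 257 CPM in GFP, 320 and 275 in YAP6SA, and 202 and 122 in YAP5SA. The accessory subunits called higher besides *Ndufa1* were *Ndufa2* (0.69, FDR 0.0264), *Ndufa4* (0.53, FDR 0.0395), *Ndufb7* (0.54, FDR 0.0388) and *Ndufb11* (0.49, FDR 0.046). *Ndufa4* had 97.6 and 93.9 CPM in GFP, 162 and 125 in YAP6SA, and 134 and 141 in YAP5SA. For this gene both variants stood above GFP.

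All 4 genes of complex II, the succinate dehydrogenase of the TCA cycle, had negative fitted values in YAP5SA OE CMs. Within batches, 3 were negative in both and 1 was positive in batch 1. With a library left out, the highest value was 0.01 for *Sdha* and 0.05 for *Sdhc*. *Sdhb*, the iron-sulfur subunit, had 328 and 293 CPM in GFP, 398 and 323 in YAP6SA, and 250 and 174 in YAP5SA. It was lower in YAP5SA than in GFP (-0.57, standard error 0.16, FDR 0.0306). The flavoprotein *Sdha* (-0.18, FDR 0.464) and the membrane anchors *Sdhc* (-0.13, FDR 0.581) and *Sdhd* (-0.45, FDR 0.0621) did not pass the test. Their values in YAP6SA OE CMs ran from 0.12 (*Sdhd*) to 0.31 (*Sdhc*), with 0 of 4 called.

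In complex III, the electron carrier cytochrome c1, *Cyc1*, had the most negative value in YAP5SA OE CMs. It had 1069 and 1292 CPM in GFP, 1076 and 1199 in YAP6SA, and 858 and 739 in YAP5SA, and its log2 fold change of -0.56 missed the threshold (standard error 0.19, FDR 0.0661). Both YAP5SA libraries were below the other 4. The Rieske protein *Uqcrfs1* had 0.14 and the core proteins *Uqcrc1* and *Uqcrc2* -0.22 and -0.36. The small subunit *Uqcr11* had 94.6 and 98.2 CPM in GFP, 174 and 112 in YAP6SA, and 142 and 171 in YAP5SA. It was higher in YAP5SA (0.70, standard error 0.21, FDR 0.0358), and its value in YAP6SA of 0.55 differed between batches, the first library being the higher. The 5 small subunits had a median of 0.47 in YAP6SA and 0.32 in YAP5SA.

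In complex IV, *Cox7c* and *Cox7a2* were higher in YAP5SA OE CMs, and 0 genes were lower by edgeR, DESeq2 or limma-voom, with 0 at an unadjusted p under 0.05 by edgeR. *Cox7c*, a small structural subunit, had 137 and 132 CPM in GFP, 230 and 164 in YAP6SA, and 199 and 195 in YAP5SA (0.56, FDR 0.0379). *Cox7a2*, the isoform used by most tissues, had 85.2 and 86.9 CPM in GFP, 130 and 105 in YAP6SA, and 127 and 169 in YAP5SA. All libraries of both variants were above GFP for both genes. *Cox7a2* had a value of 0.78 in YAP5SA (standard error 0.18, FDR 0.0146) and 0.45 in YAP6SA (FDR 0.804). *Cox6b2* had the largest value of the complex, 1.00, from 62 and 27 counts in GFP and 51 and 130 in YAP5SA, and did not pass the test (FDR 0.190).

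**Figure D3:**
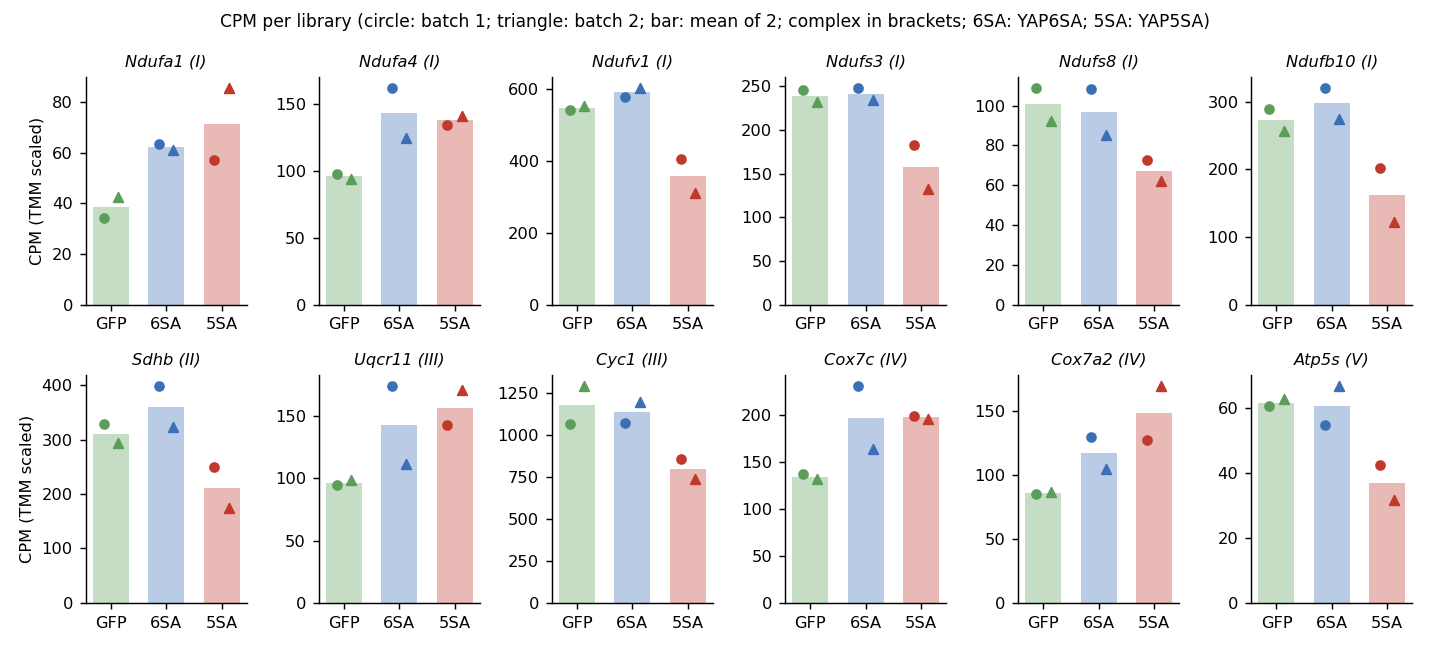
CPM (y axis, from 0) of 12 named members in each library, by group (x axis), with circles for batch 1, triangles for batch 2 and bars for the mean of the 2 libraries. *Ndufa1*, *Ndufa4*, *Uqcr11*, *Cox7c* and *Cox7a2* are above GFP in both variants, whereas *Ndufv1*, *Ndufs3*, *Ndufs8*, *Ndufb10*, *Sdhb*, *Cyc1* and *Atp5s* have both libraries below GFP in YAP5SA but not in YAP6SA.

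Within complex IV, the share of the muscle isoform *Cox7a1* in the counts of *Cox7a1* and *Cox7a2* was 48.4% and 45.9% in the GFP libraries (95% Wilson intervals 46.6% to 50.1% and 44.0% to 47.9%). It was 46.8% and 41.3% in YAP6SA and 36.9% and 28.6% in YAP5SA (35.2% to 38.6% and 27.3% to 30.0%). The intervals cover counting error alone. The means were 47.2% ± 1.73 in GFP, 44.1% ± 3.93 in YAP6SA and 32.8% ± 5.83 in YAP5SA (SD, n = 2), so YAP5SA lay below both other groups and YAP6SA overlapped GFP. An exact permutation test of 2 libraries against 2 cannot reach 0.05, and none was made. *Cox7a1* itself had 79.8 and 73.8 CPM in GFP and 74.2 and 67.9 in YAP5SA (-0.11, FDR 0.673), while *Cox7a2* rose. Per kb of exonic length, the *Cox7a1* share was 61.1% in GFP, 58.1% in YAP6SA and 46.1% in YAP5SA. This length covers all annotated exons of a gene and not the expressed mRNA alone. The level of these shares therefore depends on the annotation.

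The other muscle isoforms of complex IV kept their shares within the spread of the libraries. The *Cox6a2* share in *Cox6a1* and *Cox6a2* was 63.3% ± 3.32 in GFP, 62.8% ± 2.91 in YAP6SA and 64.5% ± 6.82 in YAP5SA (SD, n = 2). That of *Cox8b* in *Cox8a* and *Cox8b* was 48.5% ± 1.33, 49.8% ± 3.35 and 46.4% ± 2.25. In each pair the groups overlapped. *Cox4i2*, the isoform linked to low oxygen, had 0.448% to 0.871% of the *Cox4i1* and *Cox4i2* counts in the 6 libraries. The shares of the c-ring genes of complex V, which encode one mature protein, were 59.5% ± 2.86 in GFP and 62.0% ± 0.819 in YAP5SA for *Atp5g3*, the gene with the most counts of the 3.

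**Figure D4:**
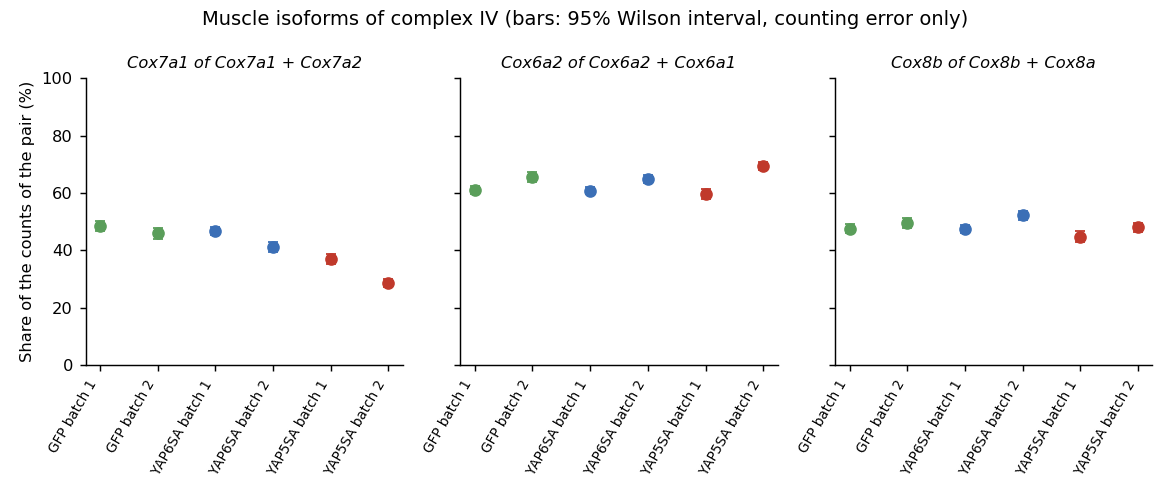
Share of the muscle isoform in the counts of its pair (y axis, percent) in each of the 6 libraries (x axis) for *Cox7a1*, *Cox6a2* and *Cox8b*. Bars are 95% Wilson intervals for counting error. The *Cox7a1* share was 36.9% and 28.6% in YAP5SA against 45.9% and 48.4% in GFP, and the other shares overlapped between groups.

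Complex V had 1 gene in each direction in YAP5SA OE CMs. *Atp5s*, also called factor B, fell by 0.74 (standard error 0.19, FDR 0.0217), from 60.5 and 62.5 CPM in GFP to 42.3 and 31.5, while YAP6SA had 54.6 and 66.5. *Atp5o* had 39.9 and 36.7 CPM in GFP, 58.2 and 55.6 in YAP6SA, and 51.0 and 57.9 in YAP5SA (0.51, FDR 0.0475). Its exons overlap other genes, among them the uncounted row of the same symbol, so its counts are uncertain. The catalytic head subunits *Atp5a1* and *Atp5b* had 961 and 1201 CPM and 1002 and 1102 CPM in GFP. Their log2 fold changes were 0.05 and 0.16 in YAP6SA and -0.32 and -0.06 in YAP5SA, with no call. The 3 c-ring genes had values from 0.32 to 0.41 in YAP6SA and from -0.09 to 0.09 in YAP5SA.

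The counts of calls in YAP5SA OE CMs depended on the fit and on single libraries. Without the batch term as a replicate block, 3 members were higher and 1 was lower, against 9.99% and 5.70% of all genes, and the 4-library fit gave 4 and 4, against 11.6% and 7.25%. Without the GFP library of batch 1, 1 member was higher and 1 lower (9.25% and 5.19% of all genes), and without that of batch 2, 0 and 0 by edgeR (4.20% and 1.34%), with 8 and 3 at an unadjusted p under 0.05. Without the YAP5SA library of batch 1 the counts were 19 and 14 (19.4% and 17.1%), and without that of batch 2 they were 1 and 2 (8.25% and 4.81%). Without the YAP6SA library of batch 1 they were 6 and 4 (11.6% and 7.47%), and without that of batch 2, 4 and 4 (11.6% and 7.46%). *Ndufa1*, *Ndufa2*, *Cox7a2* and *Atp5s* were called in all 9 of the other fits of the data.

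Compared directly, most members had lower values in YAP5SA than in YAP6SA, more so in batch 1. The median difference of log2 CPM was -0.33 in batch 1, where 2 of the 82 members were positive, and -0.13 in batch 2, where 29 were. For complex I it was -0.35 and -0.02, and for its subunits outside the core -0.32 and 0.11. The core subunits of complex I went the other way, at -0.44 and -0.50, as did complex II, at -0.48 and -0.62. Complexes III, IV and V had the larger difference in batch 1. In the fit the median was -0.24, with complex medians of -0.25 (I), -0.51 (II), -0.21 (III), -0.22 (IV) and -0.24 (V), and 13 of the 82 members had a positive value, compared with 49.0% of all genes. Within both batches 2 members were positive, against 35.5% of all genes, and 53 were negative, against 36.7%. At the threshold 11 members were lower in YAP5SA, against 5.68% of all genes, and 0 were higher by edgeR, DESeq2 or limma-voom, against 9.0% of all genes by edgeR. At an unadjusted p under 0.05, 27 were lower and 0 higher, against 14.5% and 16.4%. In CPM, both YAP5SA libraries were below both YAP6SA libraries for 41 members, against 28.9% of all genes, and above for 0, against 28.6%.

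The 11 genes were *Ndufa6*, *Ndufb10*, *Ndufs1*, *Ndufs3*, *Ndufs5*, *Ndufs8* and *Ndufv1* of complex I, *Sdhb* and *Sdhd* of complex II, and *Atp5l* and *Atp5s* of complex V. The lowest values were -0.91 for *Ndufb10* (FDR 0.0099), -0.78 for *Sdhb* (FDR 0.0122) and -0.73 for *Ndufv1* (FDR 0.0249). *Atp5l*, which encodes a small membrane subunit of the ATP synthase, had 133 and 111 CPM in YAP6SA and 91.8 and 66.6 in YAP5SA, with 113 and 83.4 in GFP (-0.63, FDR 0.0181). *Sdhd* had 218 and 183 CPM in YAP6SA and 149 and 121 in YAP5SA (-0.57, FDR 0.0353). For both genes YAP5SA was apart from YAP6SA. In complexes III and IV the lowest unadjusted p belonged to *Cyc1* (-0.51, FDR 0.109) and *Cox6a1* (-0.36, FDR 0.115).

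The direct calls also moved with the fit. Without the replicate block 0 members were lower by edgeR, against 2.26% of all genes, with 18 at an unadjusted p under 0.05, and the 4-library fit gave 7, against 5.10%. Without the GFP library of batch 1, 7 were lower (5.43% of all genes). Without the YAP6SA library of batch 1, 2 were lower (2.95%), and without that of batch 2, 0 were by edgeR (0.510%), with 13 at an unadjusted p under 0.05. Without the YAP5SA library of batch 1, 24 were lower and 1 was higher (14.7% and 16.6%), and without that of batch 2, 4 were lower (2.77%).

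Genes that serve the chain without being members were read from fixed lists. The mRNAs of the mitochondrial genome, the chain's other subunits, were 1.16% and 1.21% of the gene counts in the GFP libraries, 1.82% and 2.27% in YAP6SA, and 2.05% and 2.81% in YAP5SA. The median over their 10 tested genes was 0.79 in YAP6SA, with 0 called in the fit of 6 libraries. Even so, all 10 were higher at an unadjusted p under 0.05, against 3.86% of all genes. In the 4-library fit 8 were called higher, against 1.49%. In CPM, all 10 had both YAP6SA libraries above both GFP libraries, against 17.3% of all genes. The median was 0.95 in YAP5SA, with 10 called higher, against 12.8% of all genes. In YAP5SA OE CMs the nuclear and mitochondrial genes of the chain had medians of 0.06 and 0.95. Mitochondrial RNA in a nuclear preparation can come from outside nuclei, and its part in the members' values was not tested.

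Assembly factors, which build the complexes without remaining in them, had 50 tested genes. In YAP5SA OE CMs 0 were called higher and 9 lower, 6 of 15 for complex I, 2 of 6 for complex III and 1 of 21 for complex IV, against 12.8% higher and 9.18% lower over all genes, and the median was -0.23. Among them were *Tmem126b* (-0.90, FDR 0.0106) and *Ndufaf6* (-0.75, FDR 0.022), both needed for complex I, and *Ttc19* (-0.74, FDR 0.0077), a complex III factor. In YAP6SA OE CMs the median was 0.06, with 0 called in either direction. Among 19 carriers and related genes, 7 were lower in YAP5SA (9.18% of all genes), led by *Etfdh* (-1.13, FDR 0.00511), which passes electrons from fatty acid oxidation to ubiquinone. *Cycs*, cytochrome c, had 0.22 in YAP6SA and -0.24 in YAP5SA, with no call.

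Some genes with names close to the members were kept apart by the rule. *Ndufab1*, the acyl carrier protein in complex I, had 0.37 in YAP6SA and -0.27 in YAP5SA against GFP and was lower in YAP5SA than in YAP6SA (-0.64, FDR 0.0184). *Ndufa4l2* had 0.50 and 0.31, with no call. *Atpif1*, the inhibitor of the ATP synthase, was lower in YAP5SA OE CMs (-0.53, FDR 0.0404) and had -0.22 in YAP6SA. Among 18 regulators of mitochondrial genes, 1 was higher in YAP5SA, *Pprc1* (0.97, FDR 0.00462), and 4 were lower, against 12.8% and 9.18% of all genes. These were *Ppargc1b* (-1.25, FDR 0.0012), *Esrra* (-1.0, FDR 0.00555), *Esrrb* (-1.42, FDR 0.0459) and *Perm1* (-0.63, FDR 0.0288), coactivators and receptors known to drive respiratory genes. In YAP6SA 0 of the 18 were called, and *Perm1* had 0.49.

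Ribosomal protein genes were read beside the members. The 81 cytosolic ribosomal protein genes had a median of 0.26 in YAP6SA OE CMs, with 77 positive, 0 called, 5 at an unadjusted p under 0.05 and medians of 0.34 and 0.17 in batches 1 and 2, and the 77 mitochondrial ribosomal protein genes had 0.07, with 26 negative and 0 called. In YAP5SA OE CMs the same lists had medians of 0.88, with 70 called higher and 1 lower, and -0.14, with 4 higher and 8 lower. Over all genes, 12.8% were higher and 9.18% lower. The part of what the lists share in the members' values was not tested. The summed CM markers were 42866 and 57860 CPM in GFP, 40010 and 52224 in YAP6SA and 35332 and 25214 in YAP5SA, so the YAP5SA libraries were the lowest in each batch. Over the libraries, the summed markers of endothelial cells ran from 228 to 307 CPM, of macrophages from 53.1 to 108, of mural cells from 335 to 585 and of erythroid cells from 24.7 to 63.8. Against GFP, *C1qa* was higher in YAP5SA (1 of 5 macrophage markers tested), *Abcc9* was lower (1 of 6 mural markers), and 0 of 6 endothelial, 0 of 6 fibroblast and 0 of 2 erythroid markers were called by edgeR in either variant. The part of these cells was not tested, nor was whether CMs themselves express listed genes such as *Abcc9*.

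**Figure D5:**
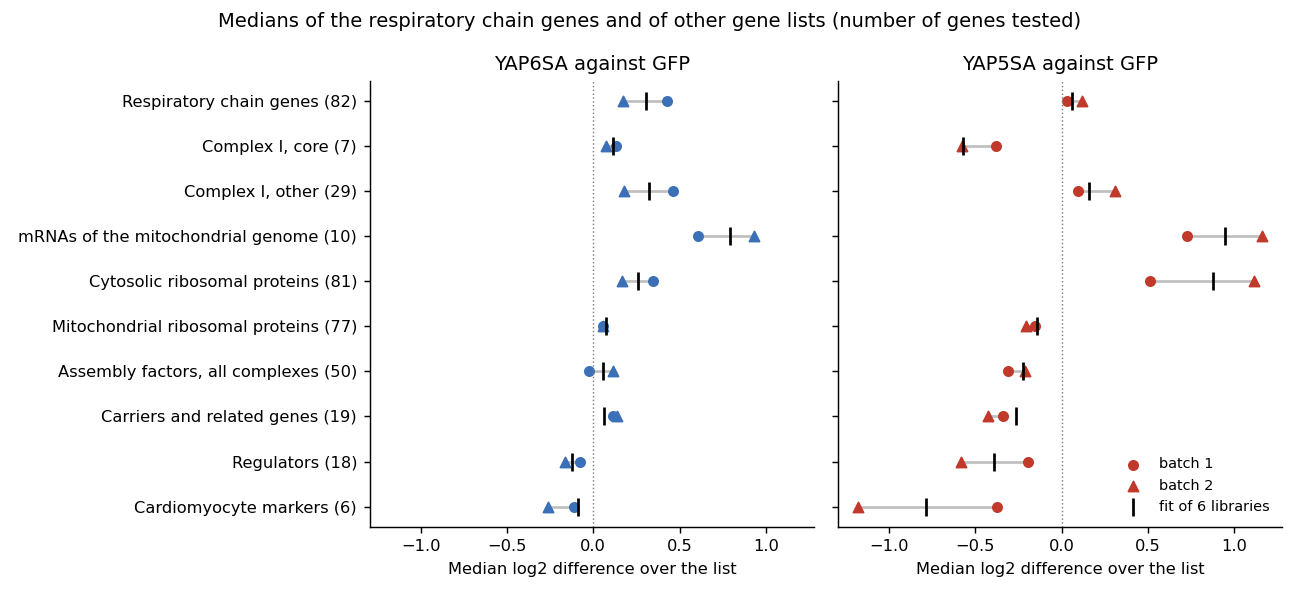
Median log2 difference (x axis) over each gene list (rows, with the number of genes tested) in batch 1 (circles), batch 2 (triangles) and the fit of 6 libraries (black ticks), for YAP6SA (left) and YAP5SA (right) against GFP. In YAP5SA the core subunits of complex I (-0.57) and its other subunits (0.16) lie on either side of 0, and the mitochondrial mRNAs (0.95) and cytosolic ribosomal proteins (0.88) lie farthest right.

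Shorter members tended to have higher values, and so did members of lower level. Exonic length here counts every base in any annotated exon of a gene. It can therefore exceed the length of the mRNA that the CMs express, which was not measured. Across the 82 members, Spearman's rho between log2 fold change and exonic length was -0.408 in YAP6SA and -0.458 in YAP5SA against GFP, compared with -0.182 and -0.0431 over 13320 genes with a length, and these genes share libraries and are not replicates. The 21 members of up to 1000 bases had medians of 0.44 in YAP6SA and 0.22 in YAP5SA, where all 509 genes of that length had 0.17 and 0.13. The 31 members of over 1000 and up to 2000 bases had 0.29 and 0.14. The 20 members of over 2000 and up to 4000 bases had 0.17 and -0.13, where all 3968 such genes had 0.04 and 0.01. The 10 longer members had 0.28 in YAP6SA, above the bin before, and -0.20 in YAP5SA. With the mean CPM over the 6 libraries in place of length, rho was -0.320 in YAP6SA and -0.351 in YAP5SA across the members (-0.159 and -0.163 over all genes), and across the 36 genes of complex I in YAP6SA it was -0.477 with mean CPM and -0.448 with length. The core subunits of complex I had a median exonic length of 2178 bases (1291 to 8086) and its other subunits 1251 bases (419 to 5628). These annotated lengths overlapped, which need not hold for the expressed mRNAs. *Ndufb7*, with 4522 annotated bases, was called higher in YAP5SA and the core gene *Ndufs8*, with 1291, lower. The part of length or level in the difference between roles was not tested.

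Of the 82 members tested, 28 share exon bases with another gene. Since the libraries carry no strand information, reads there cannot be assigned to one gene, and reads that fit more than 1 gene or place were left out of the counts. Among the members called in YAP5SA against GFP, these were *Ndufa2*, *Ndufb11*, *Ndufs1*, *Ndufs3* and *Atp5o*. Many respiratory chain genes also have near-identical processed copies in the genome, whose reads could be lost in the same way.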

How the data were processed

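The RNA of 6 hearts (PCM-1-bound nuclei, poly-A selected) was sequenced. The authors aligned it to mm10 (Ensembl 94) using STAR and deposited unfiltered raw counts, with genes in rows and libraries in columns. The counting tool is not given in the sources used here. Symbols, complexes, coordinates and exonic lengths (the union of all annotated exons of a gene) came from GENCODE M21 (GRCm38).

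Genes had to reach a median log2 CPM above 1 in some group. The test was the quasi-likelihood test of edgeR 4.0.16 (R 4.3.3) after TMM scaling. Its model held group and batch, since the study's methods name a batch covariate. The labelled batch equals the replicate number and pairs the libraries, whose deviations from the group means correlated at 0.368, 0.0985 and 0.175 across genes between groups. Batch values are differences of log2 CPM with a prior count of 2. Between replicates of a group, the variance was 31.0 to 49.4 times that of counting noise (chi-square per degree of freedom over genes). No library therefore copied another. The pipeline was run on simulated data without a batch effect, with planted changes larger than those of the called members. That run does not show how well changes of the members' size are found.

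The members and lists were chosen with earlier results of these data known, and the roles from textbook knowledge. Named genes were the isoform pairs, the catalytic subunits and genes that the study names, of which *Ndufa1* was named for its RNA. The study names *Ndufa8* and *Cox7a2* as proteins that interact with YAP6SA. Also named were up to 2 called members per complex and direction with the same sign in both batches. Where a complex had none called, its member with the lowest p was named. Other members are named because they were called or for their values. Single values of some genes under this rule are not reported here. Alternatives were RLE and upper quartile scaling, other filters, the likelihood ratio test, DESeq2 1.42.0, limma-voom (limma 3.58.1), no replicate block, 4-library fits and each library left out, where the lone library of a group is assumed to vary like the others.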

Additional observations from a re-analysis of the deposited data

How the results depend on the processing

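Each group has 2 libraries, and depth was not varied. The members' median kept its direction in each comparison under all alternatives, apart from YAP5SA against GFP, where leaving out each library in turn gave -0.00053 to 0.13, and 0.13 without the YAP5SA library of batch 1. The range was 0.18 to 0.39 for YAP6SA against GFP and -0.37 to -0.14 for YAP5SA against YAP6SA. Members called higher in YAP6SA numbered 0, but 1 without a filter on low counts, 10 in the 4-library fit and 0 to 7 with a library left out. Those called in YAP5SA against GFP numbered 9 higher and 7 lower, but 3 and 1 without the replicate block, 4 and 4 in the 4-library fit, and 0 to 19 and 0 to 14 with a library left out. Those lower in YAP5SA than in YAP6SA numbered 11, but 0 without the replicate block, 7 in the 4-library fit and 0 to 24 with a library left out, and 0 to 1 were higher. By complex, leaving out a library changed the sign of the YAP5SA medians of complexes I (-0.0064 to 0.27) and V (-0.19 to 0.02) alone. Leaving out a library changed the sign of 16 members in YAP6SA against GFP, 22 in YAP5SA against GFP and 26 in YAP5SA against YAP6SA, and the other fits that of 0, 5 and 1, but in these fits 0 of the 16 members called in YAP5SA against GFP and 0 of the 11 called in YAP5SA against YAP6SA changed sign. The cause of these shifts was not tested. Counting *Ndufa4* with complex IV, or adding *Ndufab1*, *Ndufa4l2* and *Atpif1*, which was chosen after seeing the data, moved no result past these limits.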
